A study of Mus musculus with 8 samples.

Results

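The 26 genes described here are those of cholesterol synthesis and of sterol response: *Srebf2*, which encodes the transcription factor SREBP2, 3 genes that control its activation, 19 enzymes of the route from acetyl-CoA to cholesterol and its isoprenoid branch, and 3 other genes that SREBP2 is known to induce. They were taken by symbol from a list that was drawn up with earlier results of these data known. The list does not hold every enzyme of the route. All 26 were among the 18095 genes of the deposited count table and among the 14866 genes that passed the expression filter. The libraries were made from total RNA of whole livers of 12-week-old males, 4 labelled HFD WT and 4 labelled HFD Inpp4b-/-. Inpp4b-/- mice are knockouts of INPP4B, a lipid phosphatase of phosphoinositide signalling. Mice of both genotypes were on the same high-fat diet (HFD), which the dams were fed from before mating and the male pups until dissection, so the genes were not compared with a low-fat diet here. The labels name C57BL/6 as the strain background and the study's methods name FVB. Litters are not named, so p-values measure the spread between these mice only.

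Liver cells build cholesterol from acetyl-CoA through mevalonate, isoprenoid diphosphates, squalene and lanosterol. When the membranes of the endoplasmic reticulum are poor in sterol, SCAP carries SREBP2 to the Golgi, where it is cut, and the released fragment turns on the genes of the route in the nucleus. When sterol is plentiful, INSIG1 and INSIG2 hold SCAP and SREBP2 back. The cut is made on the protein, so the mRNA level of *Srebf2* does not by itself measure SREBP2 activity. In whole liver, fewer cells of a type and less RNA per cell cannot be told apart.

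Counts per library totalled 25893430 to 31427831 in WT and 32738435 to 36662531 in Inpp4b-/-, with no overlap between the genotypes. Levels are given as CPM, the counts of a gene per 1000000 counts of a library after TMM scaling, which corrects the totals for a few very abundant genes. *Inpp4b* (ENSMUSG00000037940, GRCm38 chromosome 8, 81342556 to 82127914) had 6, 20, 5 and 8 counts in WT replicates 1 to 4 and 33, 10, 9 and 14 counts in the libraries labelled Inpp4b-/-. It was thus not lower in the knockout libraries (log2 ratio of mean CPM 0.49, two-sided exact permutation test, p = 0.486), and every direction below rests on the labels. Which part of the gene is deleted is not given in the sources used here, and counts over the whole gene are a weak check. Hepatocyte markers (*Alb*, *Apoa1*, *Ttr*, *Cps1*, *Apob* and *Serpinc1*) summed to 76276 to 81016 CPM in WT and 79394 to 97672 CPM in Inpp4b-/-. The 6 Kupffer cell and macrophage markers summed to 42.4 to 120.4 CPM in WT and 82.2 to 158.5 CPM in Inpp4b-/-, and the 4 cholangiocyte markers to 4.65 to 8.76 CPM and 3.47 to 8.24 CPM. No marker was at 0 in any library.

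None of the 26 genes was called by edgeR's quasi-likelihood test at a Benjamini-Hochberg adjusted p under 0.10 with a fold change over 1.3, where 1.17% of all tested genes were called. DESeq2 called 0 of the 26 as well (4.04% of all genes). An unadjusted p under 0.05 was reached by 1 of the 26 in edgeR, *Insig2*, and by 1 in DESeq2, against 13.9% and 14.0% of all genes. The median log2 fold change, Inpp4b-/- over WT, was -0.03 for the 26 genes and 0.0027 for all genes tested, with 12 of the 26 genes above 0 (50.4% of all genes) and 14 below. For none of the 26 genes were all 4 libraries of a genotype above or below all 4 of the other, which 8.72% of all genes showed. The spread within WT, as the log2 ratio of the highest to the lowest library, exceeded the genotype difference for all 26 genes. The spread within Inpp4b-/- did so for 24, the exceptions being *Insig2* and *Mvd*. The share over all genes was not counted. A range over 4 libraries is often wider than a difference of group means, so these counts do not set the 26 genes apart. The 95% intervals of the log2 fold change included 0 for 25 genes, and for 24 genes the interval lay within a 2-fold change in either direction.

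**Figure D1:**
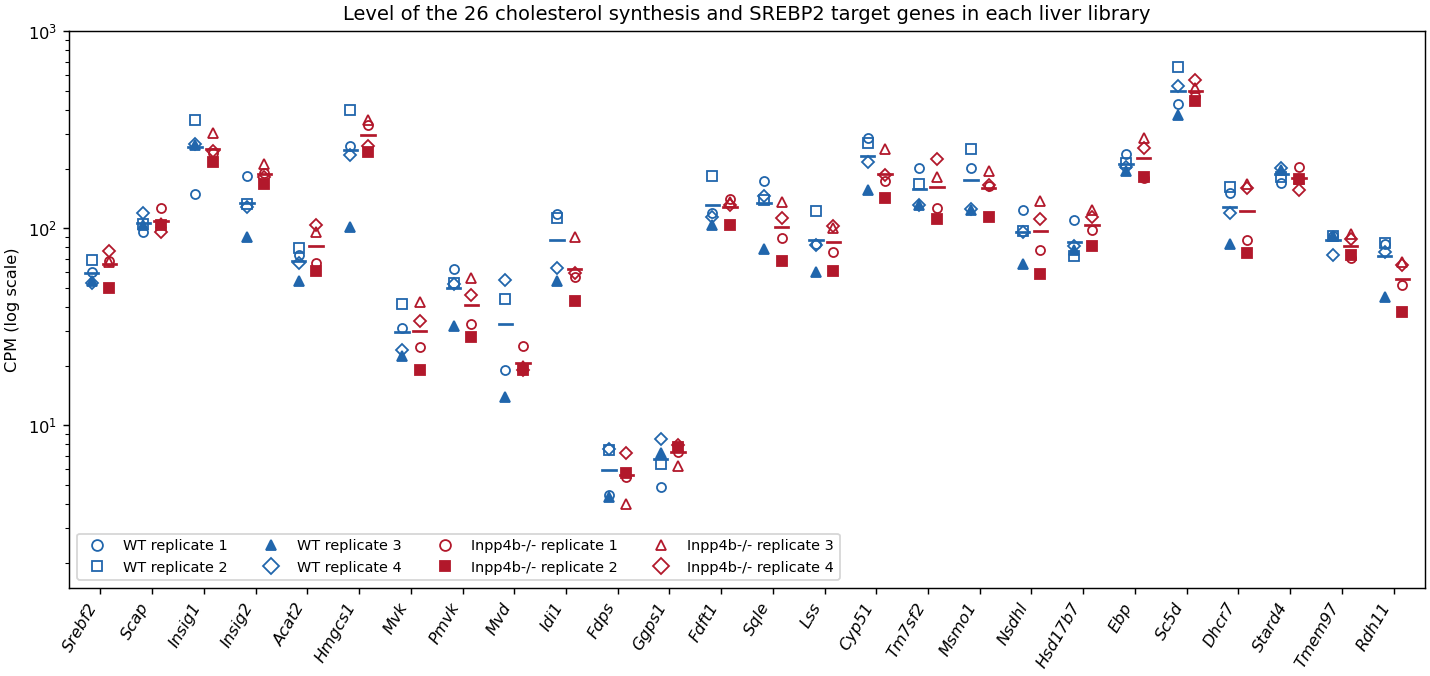
CPM (log scale) of each of the 26 genes in each of the 8 liver libraries, WT in blue and Inpp4b-/- in red, with a bar at each genotype mean. The genotypes overlap for every gene, and the filled symbols, WT replicate 3 and Inpp4b-/- replicate 2, are the lowest of their genotype for 19 and 20 genes.

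Among the regulators, *Srebf2* was present at 59.9, 69.0, 54.2 and 52.8 CPM in WT replicates 1 to 4 and at 68.4, 49.96, 67.4 and 76.5 CPM in Inpp4b-/- replicates 1 to 4. The lowest and the highest values were both from Inpp4b-/- livers, so the groups overlapped (log2 fold change 0.15, SE 0.14, edgeR adjusted p = 0.668). *Scap*, the sterol-sensing escort of SREBP2, varied least among the regulators, with 95.2, 105.5, 103.9 and 118.9 CPM in WT and 127.1, 104.0, 106.6 and 95.7 CPM in Inpp4b-/- (log2 fold change 0.03, SE 0.11, edgeR adjusted p = 0.921).

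*Insig1*, a retention protein whose gene is itself an SREBP target, had 149.2, 355.8, 264.4 and 267.9 CPM in WT and 242.3, 217.7, 304.0 and 247.4 CPM in Inpp4b-/-. The WT livers enclosed all 4 Inpp4b-/- livers (log2 fold change -0.04, SE 0.22, edgeR adjusted p = 0.960). *Insig2*, the retention protein that is less dependent on SREBP, had 183.6, 132.6, 90.7 and 128.4 CPM in WT and 189.8, 168.6, 211.4 and 182.8 CPM in Inpp4b-/-. Its mean was 188 ± 17.8 CPM (SD, n = 4) in Inpp4b-/- and 134 ± 38.2 CPM (SD, n = 4) in WT, and WT replicate 1 lay among the Inpp4b-/- livers. Its log2 fold change was 0.49 (SE 0.18) with an edgeR p of 0.023 before adjustment, and it did not pass the test after adjustment over all genes (adjusted p = 0.276). *Insig2* was the only one of the 26 whose 95% interval, 0.08 to 0.90, did not include 0.

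Among the 8 genes of the mevalonate and isoprenoid steps the median log2 fold change was -0.04, 4 being above 0, 4 below and 0 called. *Mvd*, which decarboxylates mevalonate diphosphate, had 19.0, 43.7, 13.9 and 54.5 CPM in WT and 25.2, 19.0, 19.9 and 19.1 CPM in Inpp4b-/-. WT livers thus held the 2 highest values and the lowest, a 3.92-fold range, against a 1.33-fold range in Inpp4b-/-. The difference was the largest of the 26 on the log2 scale and did not pass (log2 fold change -0.65, SE 0.37, edgeR adjusted p = 0.474).

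*Idi1*, the isopentenyl diphosphate isomerase, had 118.4, 112.4, 54.2 and 63.1 CPM in WT and 56.6, 42.8, 90.04 and 59.3 CPM in Inpp4b-/-. Its 2 highest values were from WT and its lowest from Inpp4b-/-, with the rest intermixed (log2 fold change -0.49, SE 0.29, edgeR adjusted p = 0.490). For *Hmgcs1*, the synthase of the entry step, the 4 WT livers spanned 102.0 to 397.3 CPM and enclosed the 4 Inpp4b-/- livers (243.4 to 356.0 CPM). *Acat2*, *Mvk* and *Pmvk*, the thiolase and the 2 kinases of these steps, had log2 fold changes of 0.26, 0.01 and -0.29. *Fdps* and *Ggps1*, which make the farnesyl and geranylgeranyl diphosphates, were the lowest of the 26 per length, at a mean of 1.37 and 1.49 CPM per kb of exon. Part of the sequence of both matches or overlaps other gene models, as given below, so these levels are uncertain.

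The 3 genes from farnesyl diphosphate to lanosterol were all below 0, with a median log2 fold change of -0.03, and none was called. *Sqle*, squalene epoxidase and a rate-controlling step, had 173.5, 138.7, 78.2 and 146.1 CPM in WT and 88.9, 67.9, 135.2 and 112.9 CPM in Inpp4b-/-. WT held the 3 highest values, but WT replicate 3 was lower than 3 of the Inpp4b-/- livers (log2 fold change -0.41, SE 0.26, edgeR adjusted p = 0.521). *Fdft1*, squalene synthase, and *Lss*, lanosterol synthase, each had a log2 fold change of -0.03.

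For the 8 genes from lanosterol to cholesterol the median log2 fold change was 0.01, with 5 above 0, 3 below and 0 called. *Cyp51*, the lanosterol demethylase, had 288.4, 272.2, 156.1 and 217.3 CPM in WT and 174.0, 142.7, 251.7 and 185.5 CPM in Inpp4b-/-. Its 2 highest values were from WT and its lowest from Inpp4b-/- (log2 fold change -0.31, SE 0.21, edgeR adjusted p = 0.561). The other 7 lay between -0.14 (*Msmo1*, the methylsterol oxidase) and 0.29 (*Hsd17b7*, a ketosterol reductase). *Sc5d*, the sterol desaturase, and *Ebp*, the sterol isomerase, were the highest of the 26 per length, at a mean of 102.3 and 95.05 CPM per kb of exon.

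Of the other SREBP2 targets, *Rdh11*, a retinol dehydrogenase, had 83.6, 84.5, 44.9 and 75.3 CPM in WT and 51.4, 37.7, 67.8 and 65.2 CPM in Inpp4b-/-. WT held the 3 highest values and WT replicate 3 was below 3 of the Inpp4b-/- livers (log2 fold change -0.38, SE 0.23, edgeR adjusted p = 0.495). *Stard4*, a cytosolic sterol carrier, and *Tmem97*, a sterol-regulated membrane protein, had log2 fold changes of -0.07 and -0.09.

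**Figure D2:**
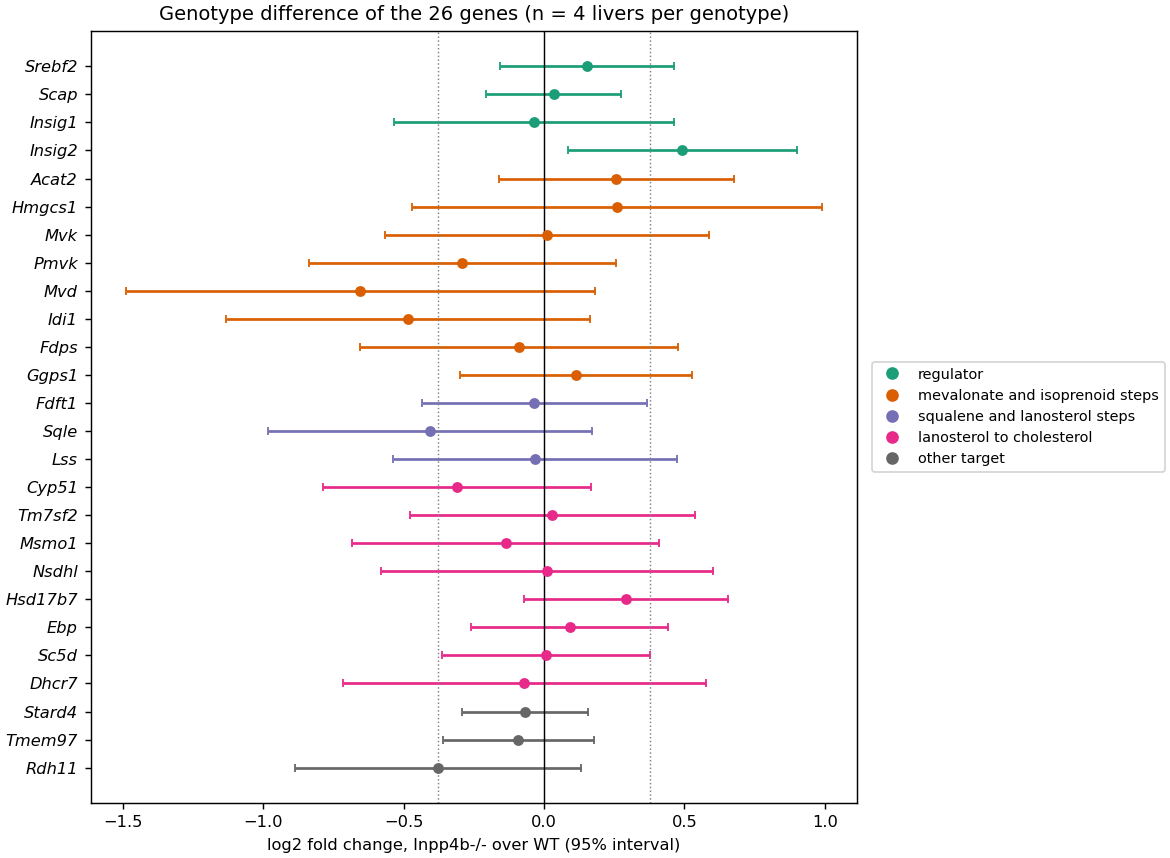
Fitted log2 fold change (Inpp4b-/- over WT) of each gene with its 95% interval from the edgeR fit, coloured by step, with dotted lines at a 1.3-fold change. The interval of *Insig2* alone lies off 0, and those of *Mvd* and *Idi1* reach beyond a 2-fold fall.

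Some counts are uncertain because reads can match another gene. Of the longest transcript of *Acat2*, 65.6% lies in stretches of at least 150 bases that are at least 97% identical to *Acat3* or *Tcp1* transcripts. The share was 54.7% for *Fdft1* (*Ctsb* and a pseudogene), 38.5% for *Tmem97*, 33.3% for *Idi1* and 27.3% for *Ggps1*. For *Fdps*, 26.7% of the exon bases overlap the gene model *Gm43738* on the same strand, and only 120 to 257 reads per library were assigned to it. How the counting treated such reads, and whether it used strand, is not given in the sources used here.

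Other genes of sterol handling were described from 4 lists. The 8 genes of SREBP cleavage and sterol-regulated degradation had a median log2 fold change of -0.15. The 12 genes of isoprenoid use had a median of -0.06, the 15 genes of sterol sensing by LXR, esterification, trafficking and efflux had 0.10, and the 15 lipogenic genes of the SREBP1 branch had 0.10. In each of these 4 lists 0 genes were called by edgeR, where 1.17% of all genes were. Unadjusted p-values under 0.05, which 13.9% of all genes had, were found for 3 of 8, 3 of 12, 2 of 15 and 2 of 15 genes in the order given.

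Although no gene passed the test between genotypes, levels varied from liver to liver, and most of the 26 genes varied together. The median standard deviation within a genotype was 0.393 on the log2 CPM scale for the 26 genes and 0.263 for all tested genes. After each gene was centred within its genotype, the median Pearson r over the 325 pairs of the 26 genes was 0.54 across the 8 libraries. For all pairs of tested genes the median was -0.001. An r over 0.5 was found in 52.6% of the pairs among the 26 genes and in 14.3% of all pairs. These correlations are a description, since the points share libraries, depth and RNA quality and the genes of a pair are not independent of other pairs.

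The libraries with the lowest levels were Inpp4b-/- replicate 2 and WT replicate 3. Of the 26 genes, 20 had their lowest Inpp4b-/- value in replicate 2, as 24.5% of all tested genes did. In WT, 19 had their lowest value in replicate 3 (21.1% of all tested genes), and 17 were lowest in both (5.05%). The median deviation of the 26 genes from the genotype mean, on the log2 scale, was -0.08, -0.36, 0.27 and 0.17 in Inpp4b-/- replicates 1 to 4 and 0.14, 0.25, -0.38 and -0.02 in WT replicates 1 to 4. The median over all genes was no more than 0.0125 in any library, as the scaling and centring of the values fix it near 0. The highest value was most often in Inpp4b-/- replicate 3 (15 genes) and in WT replicates 2 and 1 (11 and 10 genes). In Inpp4b-/- replicate 2 the hepatocyte and blood marker sums were the lowest of the genotype, at 79394 and 196 CPM. In WT replicate 3 they were also the lowest, at 76276 and 96.2 CPM. The hepatocyte sum was nearly as low in WT replicate 4 (77271 CPM), where the median deviation of the 26 genes was -0.02. The blood sum was nearly as low in WT replicate 1 (98.4 CPM), where the median deviation of the 26 genes was 0.14. Sums of Kupffer cell, cholangiocyte, endothelial and stellate markers were not lowest in Inpp4b-/- replicate 2. The stellate sum there was 137.3 CPM, close to the lowest, 135.1 CPM in Inpp4b-/- replicate 4. In WT replicate 3 the endothelial and stellate sums were the lowest of WT, at 69.1 and 129.4 CPM. The Kupffer cell and cholangiocyte sums were lowest in WT replicate 1. The part of cell content in the result was not tested. The median pairwise r was 0.30 with Inpp4b-/- replicate 2 and WT replicate 3 left out, a choice made after their values were seen. In that setting 0 of the 26 genes were called (25 of all genes).

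**Figure D3:**
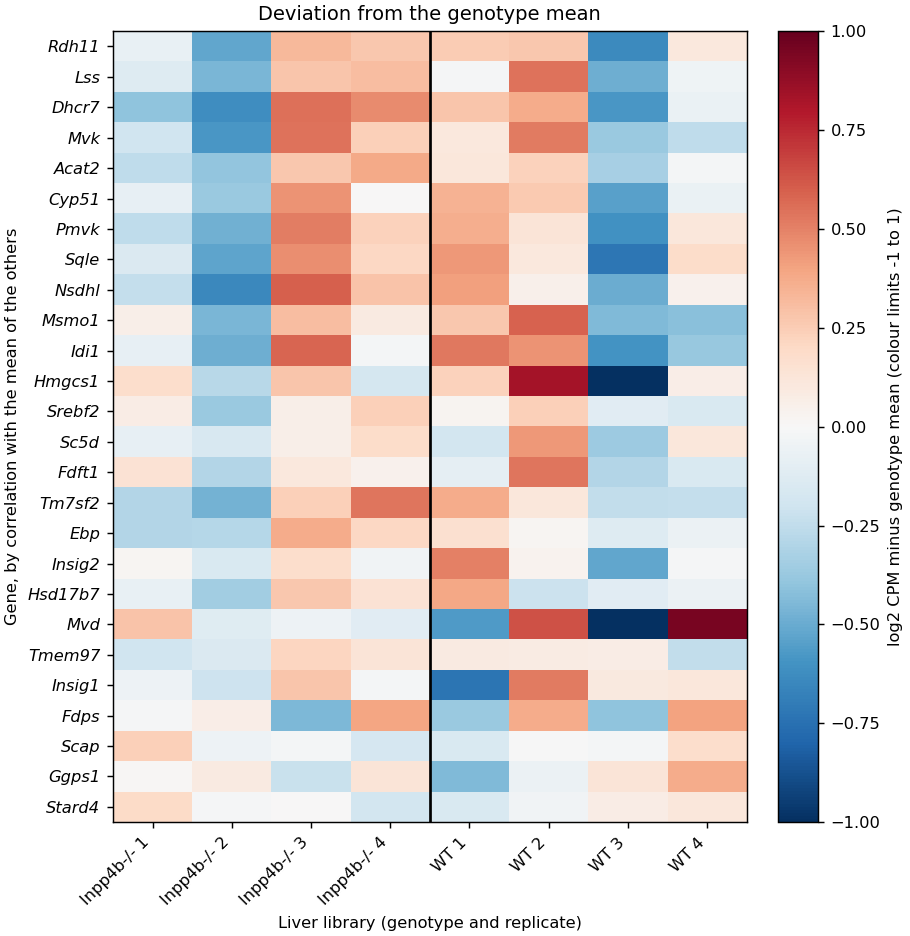
Log2 CPM of each gene minus its genotype mean in each library, red above and blue below, with genes in order of their correlation with the mean of the other 25. Inpp4b-/- replicate 2 and WT replicate 3 are blue for most genes, while *Scap*, *Ggps1* and *Stard4* at the foot do not follow.

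Each gene was then set against the mean of the other 25, after centring within genotype and scaling each gene to its own spread. The r was 0.8 or more for 11 of the 26 genes, where 1.62% of genes outside the list reached 0.8 with the mean of the 26. The 11 were *Rdh11* (0.96) and 10 enzymes from the entry of the route to its last step, *Lss* (0.96), *Dhcr7* (0.93), *Mvk* (0.92), *Acat2* (0.91), *Cyp51* (0.90), *Pmvk* (0.89), *Sqle* (0.88), *Nsdhl* (0.86), *Msmo1* (0.83) and *Idi1* (0.83). *Dhcr7*, the reductase that makes cholesterol from its immediate precursor, had 150.9, 161.7, 83.6 and 119.1 CPM in WT and 87.4, 74.8, 168.5 and 160.0 CPM in Inpp4b-/-. It thus varied 2.25-fold among Inpp4b-/- livers with a genotype difference of -0.07 (log2). *Srebf2* itself had an r of 0.77 with the mean of the other 25 genes, which include the other regulators. Its range was narrower, at 1.31-fold in WT and 1.53-fold in Inpp4b-/-.

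The genes that did not follow were *Stard4* (r = -0.42), *Ggps1* (-0.42), *Scap* (-0.16), *Fdps* (0.18) and *Insig1* (0.26). *Stard4* had 169.0, 182.7, 197.5 and 202.2 CPM in WT and 203.5, 177.4, 178.7 and 157.1 CPM in Inpp4b-/-. It was thus not low in WT replicate 3, and its lowest Inpp4b-/- value was in replicate 4. The pair of *Stard4* and *Scap* had an r of 0.93. *Insig1* was lowest in WT replicate 1, where *Sqle*, *Idi1* and *Cyp51* were at their WT highest, and the r of *Insig1* with *Sqle* was -0.06. *Mvd* and *Fdps* had an r of 0.74 with each other, above the r of each with the mean of the other genes (0.43 and 0.18). They did not stand apart as a pair, since *Sc5d* had an r of 0.75 with *Mvd* and 0.71 with *Fdps*. *Sc5d* itself had an r of 0.77 with the mean of the other genes.

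**Figure D4:**
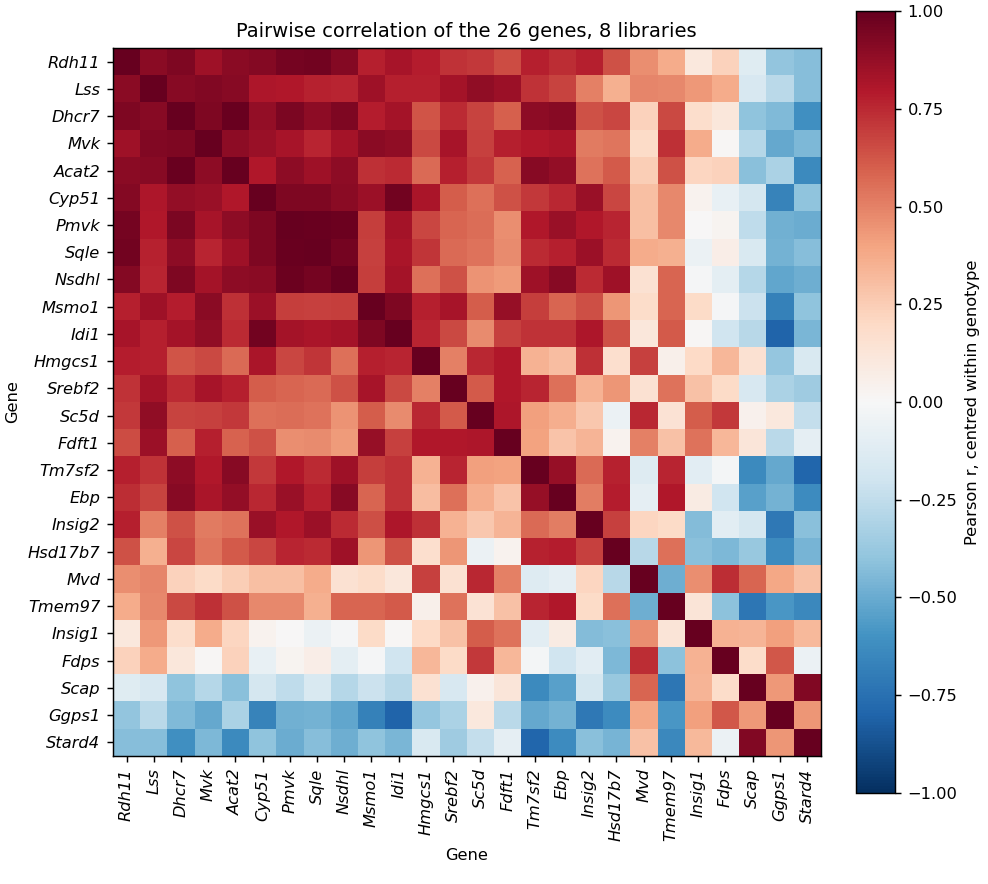
Pearson r of log2 CPM, centred within genotype, for each pair of the 26 genes over 8 libraries, in the order of the plot of deviations. The enzymes from *Rdh11* to *Idi1* form a block of high r, and *Scap*, *Ggps1* and *Stard4* have negative r with most of them.

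Of 5 gene pairs tested over the 8 libraries without centring, *Sqle* with *Idi1* passed (Pearson r = 0.86, exact permutation p = 0.0096, adjusted p = 0.048; Spearman rho = 0.93, exact permutation adjusted p = 0.011). Without the 2 libraries farthest from the *Sqle* median, Inpp4b-/- replicate 2 and WT replicate 3, it no longer did (r = 0.75, exact permutation p = 0.086, adjusted p = 0.280). The Spearman rho was then 0.83. A test on 6 libraries has less power, so its result cannot show how far the relation rests on the 2 left out. *Srebf2* with *Srebf1*, the gene of the lipogenic paralogue, had r = 0.62 (exact permutation adjusted p = 0.269). *Fdps* with *Fdft1*, *Srebf2* with *Insig1* and *Hmgcs1* with *Insig1* had r of 0.33, 0.29 and 0.20 and did not pass. The Spearman rho of these 4 pairs lay between 0.07 and 0.57.

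The lipogenic genes of the SREBP1 branch varied in part with the cholesterol genes. Of the 15, 8 had an r of 0.5 or more with the mean of the 26, where 13.0% of all genes outside the list had, and their median r was 0.51. Their median deviation was -0.24, -0.30, 0.17 and 0.60 on the log2 scale in Inpp4b-/- replicates 1 to 4 and -0.12, 0.37, -0.23 and 0.04 in WT replicates 1 to 4. They too were low in Inpp4b-/- replicate 2 and WT replicate 3, but among the Inpp4b-/- livers were highest in replicate 4, where the cholesterol genes were second. The genes of SREBP cleavage and degradation (median r = -0.32), isoprenoid use (-0.09) and LXR and efflux (0.02) had median r below that.

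Some of the 26 genes share their upstream region with a neighbour transcribed the other way, and these neighbours were looked up after the values of the 26 had been seen. *Mmab*, the adenosyltransferase of vitamin B12 metabolism, starts 209 bases from *Mvk*. It had 37.7, 39.8, 30.6 and 33.6 CPM in WT and 37.2, 29.7, 44.3 and 38.1 CPM in Inpp4b-/-, and was thus lowest in the same pair of livers. Its r was 0.95 with *Mvk* and 0.94 with the mean of the 26, where it ranked 17 of the 14840 tested genes outside the list. *Cetn2*, a centrin of the centriole, starts 146 bases from *Nsdhl* and had 12.2, 14.5, 7.51 and 12.1 CPM in WT and 10.4, 8.75, 12.2 and 14.2 CPM in Inpp4b-/-. Its r was 0.78 with *Nsdhl* and 0.94 with the mean of the 26 (rank 20). *Nadsyn1*, an NAD synthetase, starts 296 bases from the GENCODE start of *Dhcr7*. It had an r of -0.35 with *Dhcr7* and -0.44 with the mean. RefSeq also gives *Dhcr7* a start farther away, with a promoter window at chr7:143829964-143830263 besides that at chr7:143822917-143823216. Which start these livers used was not tested, so *Nadsyn1* and *Dhcr7* may not share an upstream region. The noncoding *Gm26608* beside *Insig1* and *3110045C21Rik* beside *Hsd17b7* had r of 0.62 and 0.55 with the mean, at 3.07 to 7.31 CPM and 0.27 to 2.25 CPM.

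**Figure D5:**
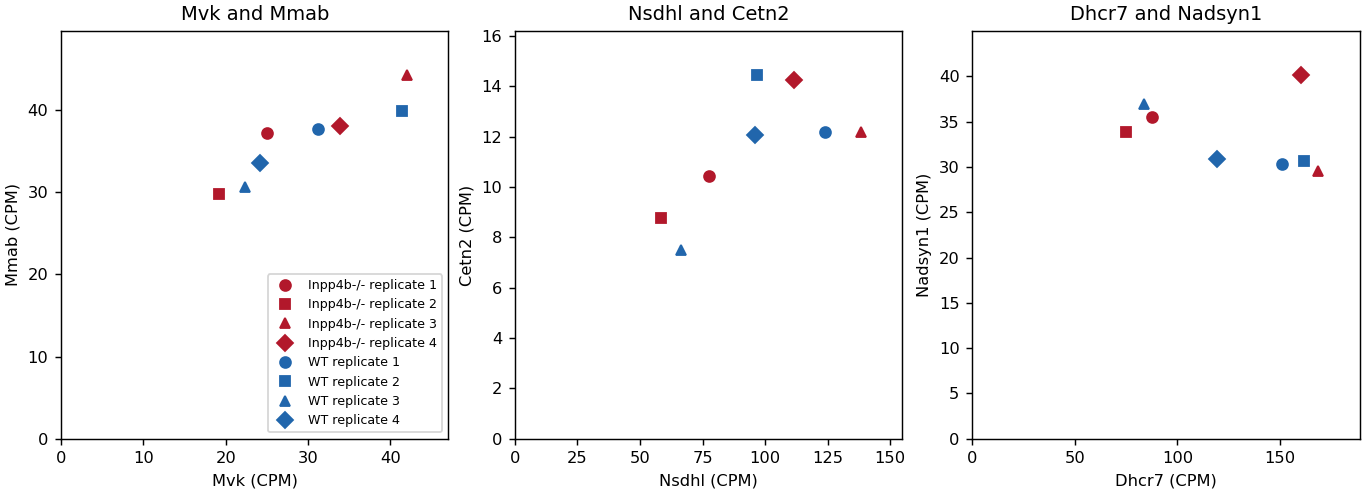
CPM of 3 genes against CPM of the protein-coding neighbour that starts close by in the other direction, 1 point per library, both axes from 0. *Mmab* and *Cetn2* are low where *Mvk* and *Nsdhl* are low, and *Nadsyn1* does not follow *Dhcr7*.

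The upstream sequences were searched because the genes moved together. RefSeq promoter windows of GRCm38.p6, 250 bases before to 50 after a start, were found for 22 of the 26 genes, with 29 windows in all. *Fdps*, *Fdft1*, *Sqle* and *Stard4* had no entry. On both strands, the CCAAT letters, which the factor NF-Y binds, were in windows of 20 of the 22 genes and in 20 of the 29 windows, against 37.4% of the 32851 windows of all genes. The 2 genes without them were *Scap*, which did not follow the others, and *Acat2*, which did. *Ggps1* and *Insig1*, which did not follow the others either, had up to 3 and 1 in a window. The GC box GGGCGG was in 22 of the 29 windows (35.7% of all). The sterol regulatory element in the strict form TCACNCCAC was in 1 of the 29 windows, that of *Hmgcs1* (1.24% of all), which says only that these letters are not in the other windows. The upstream part of the *Hmgcs1* window (chr13:119690101-119690350, + strand) and the bases between the start sites of *Mvk* and *Mmab* (chr5:114444061-114444268, + strand) and of *Nsdhl* and *Cetn2* (chrX:72918412-72918520, + strand) are shown as the 5′ to 3′ strand of *Hmgcs1*, *Mvk* and *Nsdhl*, since they hold the 1 strict element and the shared upstream regions. Capitals mark TCACCCCAC and each CCAAT or its reverse complement ATTGG, and each sequence ends at the base before the RefSeq start. For *Nsdhl* and *Hmgcs1* this start lies upstream of the GENCODE start, from which the 146 bases between *Nsdhl* and *Cetn2* were counted.
Hmgcs1: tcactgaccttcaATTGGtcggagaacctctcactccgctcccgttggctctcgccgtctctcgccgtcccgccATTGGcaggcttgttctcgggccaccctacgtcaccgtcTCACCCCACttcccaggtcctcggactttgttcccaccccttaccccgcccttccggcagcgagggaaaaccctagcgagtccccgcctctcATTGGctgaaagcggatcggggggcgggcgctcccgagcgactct
Mvk: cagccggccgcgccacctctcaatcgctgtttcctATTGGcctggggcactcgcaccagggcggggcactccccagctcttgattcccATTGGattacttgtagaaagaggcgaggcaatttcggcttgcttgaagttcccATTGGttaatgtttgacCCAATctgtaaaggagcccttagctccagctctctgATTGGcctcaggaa
Nsdhl: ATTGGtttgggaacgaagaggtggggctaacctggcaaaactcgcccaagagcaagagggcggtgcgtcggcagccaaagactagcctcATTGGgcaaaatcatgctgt
The *Hmgcs1* sequence holds 3 CCAAT boxes and the element between the second and the third, the *Mvk* sequence holds 5 in 208 bases, and the *Nsdhl* sequence holds 2 in 109 bases. More CCAAT letters lie between the RefSeq and the GENCODE start of *Nsdhl* and of *Hmgcs1*, so these counts depend on the start that is used. A match of letters is a description of the sequence and was not tested as a binding site.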

How the data were processed

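RNA from 8 livers was sequenced as 150-bp paired-end reads. According to the study's methods and the submitters' processing notes, the authors aligned the reads to GRCm38 with HISAT2, counted reads per gene with HTSeq and deposited raw counts, which were used here. Every gene of the table has at least 1 read in all libraries of a genotype. A second deposited table of normalized values and the STAR counts were not used. The annotation release and strand setting are not given in the sources used here. Symbols and coordinates came from GENCODE M21 (all 18095 identifiers matched) and promoters from RefSeq.

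Genotypes were compared with edgeR 4.0.16 by its quasi-likelihood test (glmQLFTest) after TMM scaling and filterByExpr, with no covariate, and p-values were adjusted by Benjamini-Hochberg over 14866 genes. DESeq2 1.42.0 (R 4.3.3), other normalizations, filters, thresholds and prior counts, a replicate block and leaving out libraries were the alternatives. The 26 genes had 120 to 20870 counts per library, and the common coefficient of variation between mice was 0.251. Correlations used log2 CPM (prior count 2) with Python 3.11.15 and scipy 1.17.1. The fits were tested on simulated data with 200 changed genes. At the thresholds used here edgeR called 57 of 100 genes changed 2-fold and 86 of 100 changed 4-fold. Of the calls, 11.7% were false in edgeR and 28.7% in DESeq2. A gene changed 2-fold could thus go uncalled. The changed genes were drawn from all tested genes, so these rates are not those of the 26. The 26 varied more within a genotype (median standard deviation 0.393 against 0.263 on the log2 scale). The 26 genes and the other lists were chosen with earlier results of these data known, and leaving out both low livers and the search for neighbours were added after the values were seen. Values per library are given for the 4 regulators, genes with an unadjusted p under 0.05 and the 6 largest absolute log2 fold changes, and for *Dhcr7*, *Stard4*, *Mmab* and *Cetn2*, which were chosen after their values were seen.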

Additional observations from a re-analysis of the deposited data

Results flagged for a closer look

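*Mvd* in Inpp4b-/- replicate 1, at 25.2 CPM, stood apart from the other 3 Inpp4b-/- livers, of which the nearest was at 19.9 CPM. *Tmem97* in WT replicate 4, at 72.9 CPM, stood apart from the other 3 WT livers, of which the nearest was at 90.9 CPM. These were 2 of 52 groups of 4 livers examined by Dixon's test, and chance gives about 1 in 20, or 2.6 groups.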

How the results depend on the processing

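The count of called genes among the 26 was 0 in every one of the 15 alternative fits, while the calls among all genes went from 174 to 688 with DESeq2, 26 with the replicate block, 25 without both low livers, and 53 to 345 when each library was left out in turn. The lowest adjusted p of any of the 26 in any of these fits was 0.148. The median log2 fold change of the 26 changed sign, from -0.10 to 0.06, when each library was left out in turn. Of the 390 values of single genes, 348 kept their direction, and the others lay between -0.21 and 0.17. The median pairwise r was 0.43 without centring within genotype, 0.47 to 0.65 without 1 library (0.47 without Inpp4b-/- replicate 2, 0.47 without WT replicate 3 and 0.65 without WT replicate 1) and 0.30 without both low livers. The r of *Sqle* with *Idi1* fell to 0.75 without the 2 libraries farthest from the *Sqle* median and no longer passed.

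Livers with the same replicate number did not deviate together (correlations over all genes -0.114, -0.131, -0.01 and -0.17). Livers with different numbers had correlations of -0.034 to 0.139. These values cannot show whether the numbers pair the mice, for example by litter, which is not named. With the replicate block, *Insig1* had a log2 fold change of 0.020, *Mvk* -0.0046, *Tm7sf2* -0.0042 and *Nsdhl* -0.038, each of the other sign. Without both low livers *Insig1* was at 0.021 and *Sc5d* at -0.069, and *Sc5d* was at -0.0013 with DESeq2 size factors in edgeR and at -0.00065 with DESeq2. When each library was left out in turn, the log2 fold change spanned 0 for 13 genes: *Scap* (-0.051 to 0.095), *Insig1* (-0.23 to 0.15), *Mvk* (-0.19 to 0.20), *Fdps* (-0.24 to 0.047), *Ggps1* (-0.013 to 0.25), *Fdft1* (-0.13 to 0.17), *Lss* (-0.17 to 0.17), *Tm7sf2* (-0.17 to 0.17), *Msmo1* (-0.27 to 0.075), *Nsdhl* (-0.21 to 0.19), *Ebp* (-0.042 to 0.19), *Sc5d* (-0.10 to 0.16) and *Dhcr7* (-0.26 to 0.11). The cause was not tested.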

Other observations

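The 10 tested genes outside the list with the highest r, after centring within genotype, with the mean of the 26 genes over the 8 libraries were *Ecm1* (0.98), *Sigirr* (0.98), *Fam228a* (0.97), *Plce1* (0.96), *Nmi* (0.96), *Meis1* (0.96), *Kdm4c* (0.95), *Armh3* (0.95), *Itm2b* (0.95) and *Smpd3* (0.95). They are the top of 14840 genes and are given with no test. Of those genes, 241 (1.62%) reached an r of 0.8. *Msmo1* and *Mvd* lie on the chromosome of *Inpp4b*, at a distance of 16.6 and 40.3 Mb, and neither was called.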
